A study of Rattus norvegicus with 20 samples.

Results

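The genes described here are 8 airway epithelial genes, taken by symbol from the table of gene counts: the secretory genes Scgb1a1, Scgb3a1, Scgb3a2, Aldh1a1 and Defb4, and the genes of ciliated cells and cilia Foxj1, Tppp3 and Dcdc2. All 8 of 8 were found among the 17337 gene symbols. They were followed in alveolar epithelial monolayers of Sprague-Dawley rats, in which type II cells plated on silastic membranes coated with fibronectin had turned into type I-like cells after 4 days. RNA was read by 3' end sequencing (QuantSeq), which gives 1 fragment per transcript, so that levels were not divided by gene length. There were 4 groups with 5 libraries each, 1 per animal, and each library pooled 4 monolayers of that animal.

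Unstretched cells (NS) were kept in 0.01% DMSO for 24 h. In the stretched group (S), DMSO at 0.01% was given for 18 h, after which a biaxial stretcher changed the surface area by 25% at 15 cycles per min over 6 h. The groups NS_PI and S_PI received 1 µM GSK2606414, an inhibitor of the stress kinase PERK, for 24 h without stretch and for 18 h before the same stretch. The labels give no DMSO content for the inhibitor groups. Libraries held 999209 (S, animal 4) to 3131541 counts (S, animal 2). Levels are in CPM, counts scaled to TMM-adjusted library sizes, on which the detection floor of 3 counts lies at 1.07 to 3.05 CPM.

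Club cells are the secretory cells of the distal airways, and their secretoglobins, small secreted proteins of the airway lining, are the usual markers of that lineage. Ciliated airway cells carry motile cilia built under the transcription factor Foxj1. Most other cells, alveolar epithelium included, can carry a single non-motile primary cilium, which depends on the carriers of intraflagellar transport and on the Bardet-Biedl proteins.

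The 8 genes did not move as a group when the cells were stretched. Dcdc2, which encodes a doublecortin-domain protein that binds microtubules and localizes to primary cilia, fell about as far without inhibitor as with it, from 31.5 ± 15.3 to 5.69 ± 2.75 CPM and from 29.3 ± 9.81 to 5.96 ± 3.63 CPM (mean ± SD, n = 5). Tppp3, which encodes a tubulin polymerization-promoting protein, rose without inhibitor from 8.04 ± 5.74 to 17.5 ± 10.6 CPM. Defb4, which encodes a secreted beta-defensin, fell without inhibitor, with most of its counts in a single animal. Scgb1a1, Aldh1a1 and Foxj1 did not pass the test in either stretch comparison, and Scgb3a1 and Scgb3a2 were too low to be tested. In S vs NS, 3 of the 6 tested members were called (1 higher, 2 lower) against 24.9% of all 8320 tested genes (12.5% higher and 12.4% lower), and in S_PI vs NS_PI it was 1 of 6 (lower) against 30.5% (15.2% higher and 15.3% lower). On library size alone the split over all genes was 722 higher and 1425 lower in S vs NS and 957 higher and 1677 lower in S_PI vs NS_PI, and the directions of the called members were the same. Calls rest on edgeR's quasi-likelihood test with the animal as a block and a Benjamini-Hochberg adjusted p below 0.05 over all genes tested.

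**Figure D1:**
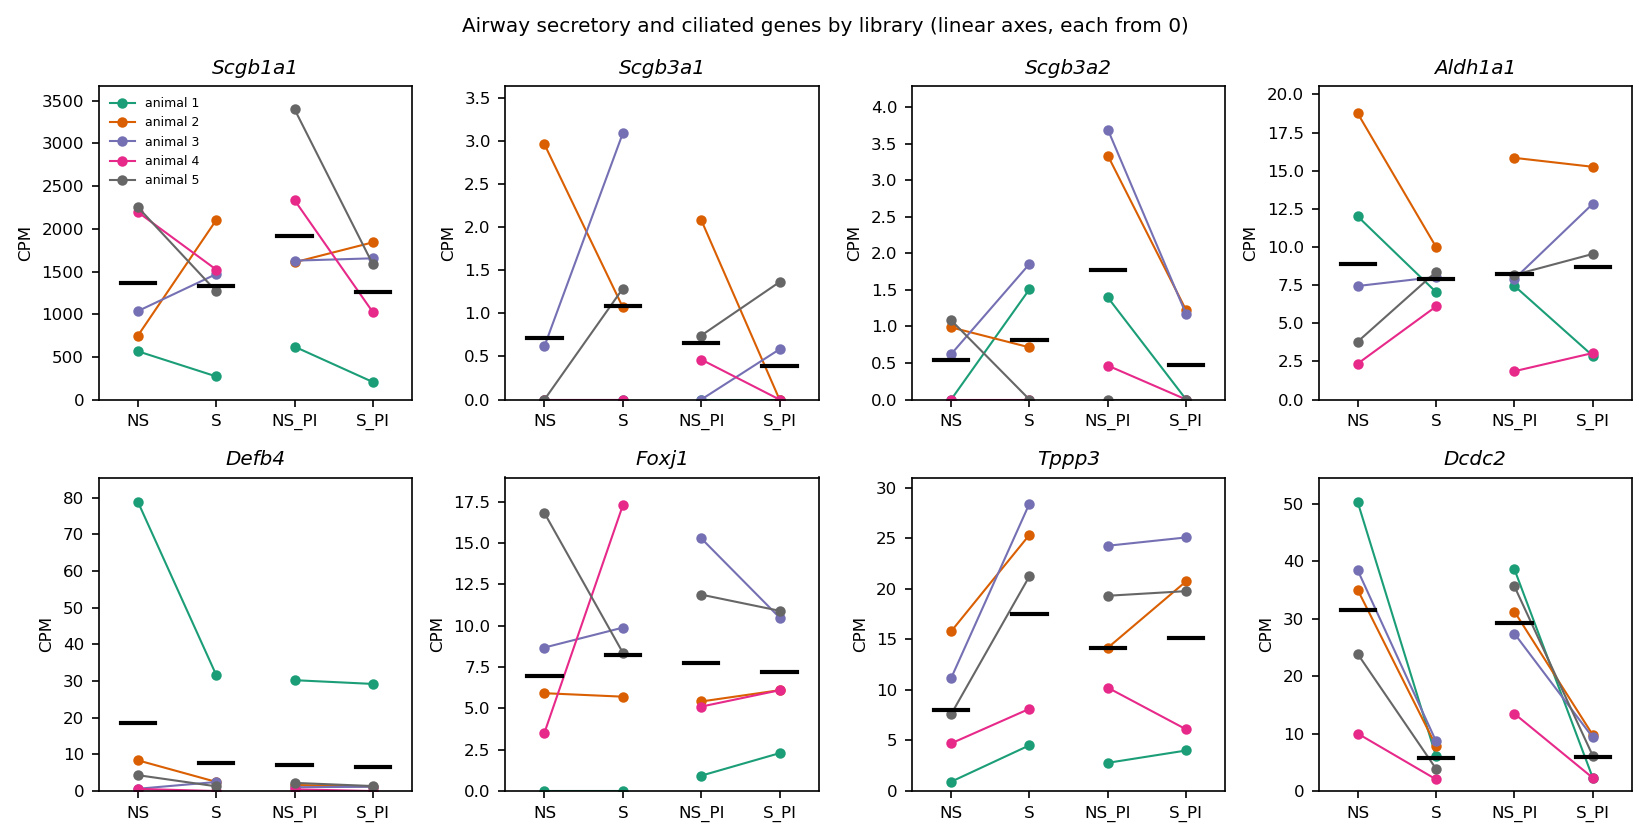
CPM of each of the 8 genes in the 20 libraries, on linear axes that start at 0 and differ between panels; points are libraries, lines join the unstretched and the stretched library of an animal, and black bars are group means. Dcdc2 was lower in the stretched library of all 5 animals in both inhibitor states, while Scgb1a1 lines cross and Defb4 stands at 29.2 to 78.9 CPM in animal 1 alone.

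Scgb1a1, the main secretoglobin of club cells, was the most abundant of the 8, at a mean of 1467 CPM, which put it at rank 66 among 17337 genes. It held at least 358 counts in each of the 20 libraries. The related secretoglobins were near or under the floor. Scgb3a1 had 27 counts in all, reached 3 counts in 4 of 20 libraries and stood at 0 in 10. Scgb3a2 had 36 counts in all, reached 3 counts in 5 libraries and stood at 0 in 8. The levels of these secretoglobins are shown beside their promoters, as given by RefSeq on the build GRCr8 from 250 bases before to 50 bases after the annotated start, since their levels lie so far apart. Capitals mark matches, on either strand, to the TATA box TATAAA, the CCAAT box, the AP-1 site TGANTCA, the NKX2-1 core CTTGAG, the TEAD core GGAATG and the E-box CACCTG, and this choice of motifs was made with the sequences in view.
Scgb1a1 promoter, chr1:215409637-215409936, minus strand: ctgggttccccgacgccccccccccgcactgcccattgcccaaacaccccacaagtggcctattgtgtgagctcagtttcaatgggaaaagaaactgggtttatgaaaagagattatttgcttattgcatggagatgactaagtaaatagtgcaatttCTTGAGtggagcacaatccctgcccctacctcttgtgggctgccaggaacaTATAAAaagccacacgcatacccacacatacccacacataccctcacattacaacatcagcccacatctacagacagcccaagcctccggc
Scgb3a1 promoter, chr10:34468916-34469215, plus strand: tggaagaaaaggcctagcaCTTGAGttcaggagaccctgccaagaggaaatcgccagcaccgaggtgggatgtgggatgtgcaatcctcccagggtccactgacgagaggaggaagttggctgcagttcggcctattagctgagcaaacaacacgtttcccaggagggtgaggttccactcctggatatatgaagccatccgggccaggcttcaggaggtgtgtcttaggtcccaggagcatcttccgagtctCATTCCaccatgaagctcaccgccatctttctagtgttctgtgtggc
Scgb3a2 promoter, chr18:36183495-36183794, plus strand: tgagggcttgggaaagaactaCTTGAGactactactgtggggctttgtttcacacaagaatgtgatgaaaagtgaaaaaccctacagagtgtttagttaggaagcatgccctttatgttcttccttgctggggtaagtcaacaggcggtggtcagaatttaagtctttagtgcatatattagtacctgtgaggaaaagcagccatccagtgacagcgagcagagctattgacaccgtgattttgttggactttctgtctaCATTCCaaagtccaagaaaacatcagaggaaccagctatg

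CTTGAG was present in the windows of all 3 secretoglobins, on the plus strand in each, at -92 in Scgb1a1, -231 in Scgb3a1 and -229 in Scgb3a2 (bases from the start to the first base of the match). It occurred in 15.8% of the 33469 promoters of the table. TATAAA was present in Scgb1a1 alone of the 3, at -41, and in 14.2% of all promoters. GGAATG was present on the minus strand in Scgb3a1, at 3, and in Scgb3a2, at 10, and absent from Scgb1a1. It also occurred in 14.2% of all promoters. Only these exact letters were searched, so a variant TATA box would be missed. A match in letters does not show that a factor binds there. Of the 8 genes, 5 had a promoter in the table, the others being Foxj1, Tppp3 and Defb4.

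Scgb1a1 went in opposite directions in different animals. Without stretch or inhibitor it stood at 566, 747, 1036, 2196 and 2254 CPM in animals 1 to 5, and with stretch at 271, 2102, 1469.7, 1522 and 1269 CPM. Both groups overlapped over most of their range, and the highest unstretched libraries, of animals 4 and 5, were both lower after stretch. Paired log2 changes of stretch were 1.49 and 0.50 in animals 2 and 3 and -1.06, -0.53 and -0.83 in animals 1, 4 and 5. With inhibitor the split was the same, with 0.20 and 0.024 in animals 2 and 3 and -1.59, -1.19 and -1.10 in animals 1, 4 and 5. The fitted log2 change was -0.15 ± 0.29 (SE) in S vs NS (adjusted p = 0.751), and its sign turned without animal 1 (0.13) or without animal 5 (0.035).

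With inhibitor Scgb1a1 stood at 619.8, 1608, 1627, 2336 and 3401 CPM in unstretched and at 205, 1842, 1655, 1023 and 1583 CPM in stretched cells of animals 1 to 5. The fitted log2 change of stretch was -0.68 ± 0.29 (adjusted p = 0.0792). It passed without animal 2 (-0.93, adjusted p = 0.0122), with upper-quartile scaling (0.0472), with library size alone (0.0391) and with no filter on low counts (0.0168), and the adjusted p spanned 0.0122 to 0.505 in 12 alternatives. The effect of the inhibitor in unstretched cells was upward in 5 of 5 animals, with a fitted log2 value of 0.43 ± 0.29 (adjusted p = 0.922), and the two-sided exact permutation test over animal pairs gave p = 0.063, which no 5 pairs can go below. The difference between the stretch effects, -0.54 ± 0.41, did not pass (adjusted p = 0.984). In order of mean level the groups were NS_PI (1918 CPM), NS (1359.9), S (1327) and S_PI (1261). No neighbours in this order differed beyond the spread between animals, which leaves out the pairing.

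The gene whose library-to-library pattern was most like Scgb1a1, once animal means were removed, was Wfdc2, another secreted protein of airway epithelium (Pearson r = 0.90 over 20 libraries, which share 5 animals). Wfdc2 stood at a mean of 955 CPM, with a log2 change of -0.13 ± 0.26 in S vs NS and -0.65 ± 0.26 in S_PI vs NS_PI (adjusted p = 0.749 and 0.0626). The kinesin Kif1c had r = 0.88. Among the 15 airway secretory markers in the table that are not members, 6 reached 3 counts in any library and Tff2, Reg3g and Cckar were at 0 in all. Cyp2f4, a club cell cytochrome, had 5 counts in all. The summed level of these 15 was 567 to 1293 CPM in NS and 262 to 1715 in S, and with inhibitor 645 to 1647 (NS_PI) and 159 to 1485 (S_PI). Nearly all of this sum was Wfdc2, at 920 of 973 CPM in NS and 961 of 1013 CPM in S (means), so that it is not a level of the whole marker class. Scgb1a1 and Wfdc2 were thus abundant in monolayers in which most other secretory markers were near the floor.

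Among all airway secretory markers, 5 were tested. In each stretch comparison 1 rose (20.0%, against 12.5% and 15.2% of all genes) and 0 fell. The riser was Aldh3a1, an aldehyde dehydrogenase, from 5.87 ± 3.29 to 10.4 ± 6.81 CPM without inhibitor (log2 change 0.82 ± 0.30, adjusted p = 0.0488) and from 4.02 ± 2.69 to 10.8 ± 5.36 CPM with it (1.40 ± 0.31, adjusted p = 0.00234). Genes that regulate goblet cells, the mucus cells of the airway, had 3 tested members. Of these Creb3l1, a transcription factor of secretory cells, rose by 1.04 ± 0.32 and 0.89 ± 0.31 (adjusted p = 0.0214 and 0.0365), and Foxa2 and Il4r were not called.

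Aldh1a1, which oxidizes retinal to retinoic acid, was low, with group means close to each other. It stood at 11.999, 18.7, 7.44, 2.36 and 3.80 CPM in unstretched cells of animals 1 to 5 and at 7.04, 9.99, 8.03, 6.10 and 8.37 CPM in stretched cells, the latter all inside the unstretched range. The log2 change of stretch was -0.16 ± 0.35 without inhibitor and 0.095 ± 0.35 with it (adjusted p = 0.779 and 0.865), and the sign of each turned when a single animal was left out. Its mean levels, 8.87 (NS), 8.71 (S_PI), 8.24 (NS_PI) and 7.91 CPM (S), did not differ beyond their spread. Aldh1a7, a near-identical rat copy, had 104 counts against 315 for Aldh1a1, and reads shared by both could be split or lost in the authors' counting, so the level of Aldh1a1 is uncertain. Aldh1a2, a second enzyme for the same step, was at a mean of 47.2 CPM.

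Some other enzymes of the family moved more than Aldh1a1. Of 12 tested aldehyde dehydrogenases, 1 rose and 4 fell in S vs NS (8.33% and 33.3%, against 12.5% and 12.4% of all genes). Their median log2 change was -0.01 (all genes -0.01). In S_PI vs NS_PI 2 rose and 2 fell (16.7% each, against 15.2% and 15.3%), with a median of 0.10 (all genes -0.02). Aldh6a1, which acts in the breakdown of valine, fell by 0.86 ± 0.23, and Aldh5a1, succinate semialdehyde dehydrogenase, fell by 0.88 ± 0.27 in S vs NS (adjusted p = 0.00925 and 0.0217). Of 19 tested genes of the retinoid pathway, 7 rose and 2 fell in S vs NS (36.8% and 10.5%, median 0.47). In S_PI vs NS_PI 4 rose and 4 fell (21.1% each, median 0.19). Among the 7 that rose in S vs NS, Rarres2, the precursor of the chemoattractant chemerin, rose by 1.05 ± 0.22 (adjusted p = 0.00193). The 2 that fell were the short-chain dehydrogenase Dhrs4, by 1.16 ± 0.22 (0.000825), and the retinol dehydrogenase Rdh14, by 1.19 ± 0.29 (0.00601).

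Defb4 was a gene of animal 1. That animal gave 350 of its 406 counts, at 78.9 CPM unstretched (NS), 31.7 CPM stretched (S) and, with inhibitor, 30.2 (NS_PI) and 29.2 CPM (S_PI). In NS the other animals stood at 8.39, 0.620, 0.589 and 4.34 CPM (animals 2 to 5), and in S at 2.50, 2.47, 0 and 1.29 CPM. Of these 8 libraries, 4 held under 3 counts, and 10 of all 20 libraries reached 3 counts. The fitted log2 change in S vs NS was -1.23 ± 0.33 (adjusted p = 0.0107), lower in 4 of 5 animals and higher in animal 3, where it went from 1 to 4 counts. The mean of the paired log2 changes was smaller, at -0.69 ± 1.02 (SD). The two-sided exact permutation test over pairs gave p = 0.188, where 0.063 is the lowest possible.

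The call of Defb4 ended without animal 2 (-1.06, adjusted p = 0.0569) and with no animal block (-1.23, adjusted p = 0.595), with adjusted p between 0.00523 and 0.595 in 10 alternatives. Defb4 did not pass the filter on low counts when animal 1 was left out or when only the compared groups were fitted. With inhibitor its log2 change of stretch was -0.16 ± 0.38 (adjusted p = 0.807). The inhibitor alone had a log2 value of -1.37 ± 0.34 in unstretched cells (adjusted p = 0.367), and the difference between the stretch effects was 1.07 ± 0.51 (adjusted p = 0.984). The level in NS of animal 1 was thus above its other 3 libraries, which lay within 29.2 to 31.7 CPM.

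No other beta-defensin was detected at the floor. Of 32 beta-defensin genes in the table, 26 were at 0 in all libraries and only Defb4 reached 3 counts in any. The list of epithelial antimicrobial genes, which also holds the transcription factor Elf3, had 15 tested genes. Of these 1 rose and 1 fell in S vs NS (6.67% each, against 12.5% and 12.4% of all genes, median 0.09). In S_PI vs NS_PI 2 rose and 3 fell (13.3% and 20.0%, against 15.2% and 15.3%). The median there was -0.49 (all genes -0.02). S100a8, a subunit of calprotectin, rose by 0.91 ± 0.27 and 1.02 ± 0.27 (adjusted p = 0.0175 and 0.00642). Elf3, an epithelial ETS transcription factor, fell by 1.03 ± 0.16 and 1.56 ± 0.17 (0.000195 and 1.6e-06). Lcn2, an iron-scavenging lipocalin, stood at a mean of 301 CPM with log2 changes of 0.46 ± 0.35 and -0.49 ± 0.35, neither called.

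Foxj1, the master regulator of motile cilia, was low and followed the animal. It had 0, 0, 2 and 4 counts in the NS, S, NS_PI and S_PI libraries of animal 1. In NS it stood at 0, 5.92, 8.68, 3.53 and 16.8 CPM in animals 1 to 5, and in S at 0, 5.71, 9.89, 17.3 and 8.37 CPM. The rise in animal 4 and the fall in animal 5 were the largest paired changes. The log2 change of stretch was 0.21 ± 0.43 without inhibitor and -0.016 ± 0.44 with it (adjusted p = 0.757 and 0.981). Without animal 4 the first was -0.32. Group means of 6.99 (NS), 7.18 (S_PI), 7.73 (NS_PI) and 8.25 CPM (S) did not differ beyond their spread.

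Tppp3 rose with stretch in 5 of 5 animals without inhibitor. It stood at 0.923, 15.8, 11.2, 4.71 and 7.59 CPM in NS and at 4.53, 25.3, 28.4, 8.13 and 21.2 CPM in S (animals 1 to 5). The groups overlapped, since animals 1 and 4 were low in both, but each animal was higher after stretch, by 0.65 to 1.47 on the log2 scale (two-sided exact permutation test over pairs, p = 0.063, again the lowest possible). The fitted change was 2.21-fold, a log2 value of 1.14 ± 0.25 (adjusted p = 0.00226). It was not called with no animal block (1.15, adjusted p = 0.275) and was called in its 11 other alternatives, with adjusted p from 0.000968 to 0.275 over all 12.

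With inhibitor Tppp3 was higher already without stretch. It stood at 2.79, 14.2, 24.3, 10.2 and 19.3 CPM in NS_PI and at 4.01, 20.7, 25.1, 6.10 and 19.8 CPM in S_PI. The stretch effect was 0.086 ± 0.24 (adjusted p = 0.812), and its sign turned without animal 2 (-0.054) and with library size alone (-0.014). The effect of the inhibitor in unstretched cells was 0.83 ± 0.25, which did not pass (adjusted p = 0.640 by edgeR). It was upward in 4 of 5 animals. The difference between the stretch effects was -1.06 ± 0.34, which did not pass either (adjusted p = 0.984 by edgeR). Tppp3 was thus called with stretch in DMSO and not with stretch in inhibitor, but a difference between these effects was not shown. The genes most like Tppp3 across the 20 libraries, with animal means removed, were Clec12a, an inhibitory lectin receptor of myeloid cells (r = 0.85), Ikzf5 (0.83) and Tmem170a (0.83). By mean level the order was S (17.5 CPM), S_PI (15.1), NS_PI (14.1) and NS (8.04), and neighbours differed by less than the spread between animals. That spread leaves out the pairing. In pairs, S_PI was lower than S in 5 of 5 animals, with log2 changes of -0.36 to -0.099. The exact permutation test over pairs gave p = 0.063, the lowest possible. The fitted value was -0.22 ± 0.23, which did not pass (adjusted p = 0.999 by edgeR).

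Other ciliated cell markers were present at low levels, and more in some animals than in others. Of the 16 in the table that are not members, 15 reached 3 counts in some library, and none was at 0 throughout. Their summed level was 26.8 to 70.5 CPM in NS and 13.6 to 88.9 in S, and with inhibitor 28.4 to 72.0 (NS_PI) and 16.6 to 64.8 (S_PI). By animal the mean sum was 21.3 CPM in animal 1, 47.4 in animal 2, 62.1 in animal 3, 44.8 in animal 4 and 74.0 in animal 5. Animal 1 thus had the lowest level of these markers, of Foxj1 and of Tppp3. This was not particular to ciliated markers. The mean sums of airway secretory, basal, type II, macrophage and fibroblast markers were also lowest in animal 1. Those of type I and endothelial markers were not, and those of neuroendocrine and mesothelial markers were highest there. In bulk RNA, fewer cells of a type and less RNA per cell cannot be told apart.

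The tested ciliated markers did not share a direction. Of 6, Foxj1 and Tppp3 included, 2 rose (33.3%, against 12.5% of all genes) and 0 fell in S vs NS. In S_PI vs NS_PI 0 rose and 1 fell (16.7%, against 15.3%). Dynlrb2, a dynein light chain, rose with Tppp3 without inhibitor (0.83 ± 0.30, adjusted p = 0.0476) and had 0.37 ± 0.30 with it (0.366). Tekt1, a tektin of the axoneme, had -0.70 ± 0.32 without inhibitor (0.112) and fell by 1.34 ± 0.32 with it (0.00326). Of 9 tested axoneme genes, 1 rose and 1 fell in each comparison (11.1% each, median -0.04 and -0.59). Over all genes 12.5% rose and 12.4% fell in S vs NS, and 15.2% and 15.3% in S_PI vs NS_PI. Dnaaf2, a factor of dynein arm assembly, rose by 0.71 ± 0.17 and 1.18 ± 0.18 (0.00504 and 6.63e-05), and Ccdc65, of the axonemal dynein regulatory complex, fell by 1.21 ± 0.38 without inhibitor (0.0223).

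The list of regulators of multiciliation, which also holds Rfx5, had 13 tested genes. Of these 1 rose and 2 fell in S vs NS (7.69% and 15.4%, against 12.5% and 12.4% of all genes, median 0.25). In S_PI vs NS_PI 3 rose and 3 fell (23.1% each, against 15.2% and 15.3%, median 0.20). Hes1, a repressor downstream of Notch, fell by 1.06 ± 0.17 and 1.44 ± 0.17 (adjusted p = 0.000196 and 4.78e-06). The receptor Notch2 rose by 0.48 ± 0.15 and 0.65 ± 0.16 (0.0276 and 0.00366). Rfx5, an RFX factor known for control of MHC class II genes, fell by 0.87 ± 0.19 and 1.51 ± 0.19 (0.00245 and 1.18e-05).

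**Figure D2:**
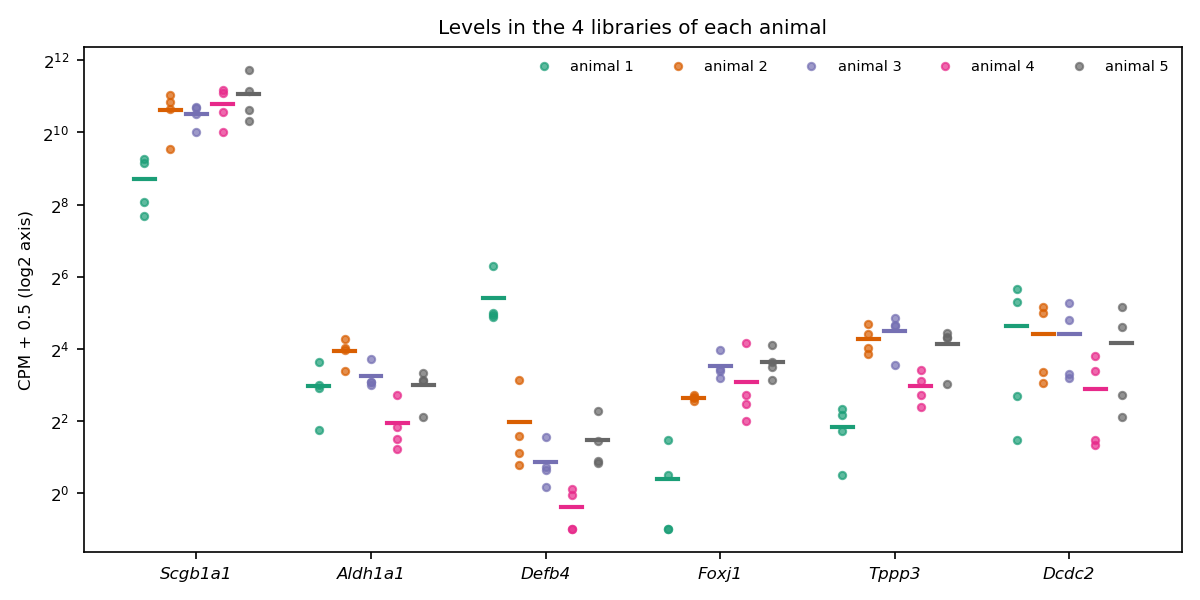
CPM plus 0.5, on a log2 axis, of the 6 tested genes in the 4 libraries of each animal; points are libraries and bars are the mean of an animal. Animal 1 is lowest for Scgb1a1 (415 CPM), Foxj1 (0.806) and Tppp3 (3.06) and highest for Defb4 (42.5), whereas Dcdc2 is spread widely within every animal.

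For most of the 8 genes the animal mattered more than the treatment. Of the variance of log2 CPM over the 20 libraries, the animal accounted for 90.9% in Defb4, 82.1% in Foxj1, 80.1% in Tppp3, 72.9% in Scgb1a1 and 65.9% in Aldh1a1, against a median of 37.5% over all tested genes. In Dcdc2 the animal accounted for 18.8% and stretch for 73.3%, against a median of 13.1% for stretch. The 4 libraries of an animal share 1 cell isolation. These shares describe the libraries and were not tested.

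Dcdc2 fell with stretch in every animal and in both inhibitor states. Unstretched it stood at 50.3, 35.03, 38.5, 10.01 and 23.9 CPM in animals 1 to 5, and stretched at 6.03, 7.85, 8.65, 2.03 and 3.86 CPM. The groups did not overlap in 1 of the 6 tested members, Dcdc2, and in 7.34% of all tested genes (3.45% higher and 3.89% lower). The lowest value, in the shallow library of animal 4, rests on 2 counts and is under the floor. The fitted change was 5.37-fold lower, a log2 value of -2.42 ± 0.28 (adjusted p = 1.03e-05), with paired changes of -2.85 to -1.82.

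With inhibitor Dcdc2 stood at 38.6, 31.3, 27.4, 13.5 and 35.6 CPM unstretched and at 2.29, 9.76, 9.33, 2.29 and 6.13 CPM stretched. Again Dcdc2 was the 1 tested member whose groups did not overlap, which held for 13.8% of all tested genes (7.16% higher and 6.6% lower). The fitted log2 change was -2.31 ± 0.29 (adjusted p = 9.2e-06), with paired changes of -3.55 in animal 1 and -2.34 to -1.45 in the others. The difference between the stretch effects was 0.11 ± 0.43 (adjusted p = 0.990). The inhibitor had log2 values of -0.06 ± 0.23 in unstretched and 0.05 ± 0.36 in stretched cells, neither called. Both stretch calls held under all 12 alternatives of each, with adjusted p of 5.19e-11 to 0.00299 without inhibitor and 2.85e-10 to 0.00251 with it. By mean level NS and NS_PI came first and S_PI and S last, and of the neighbours in this order only NS_PI and S_PI differed beyond their spread.

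**Figure D3:**
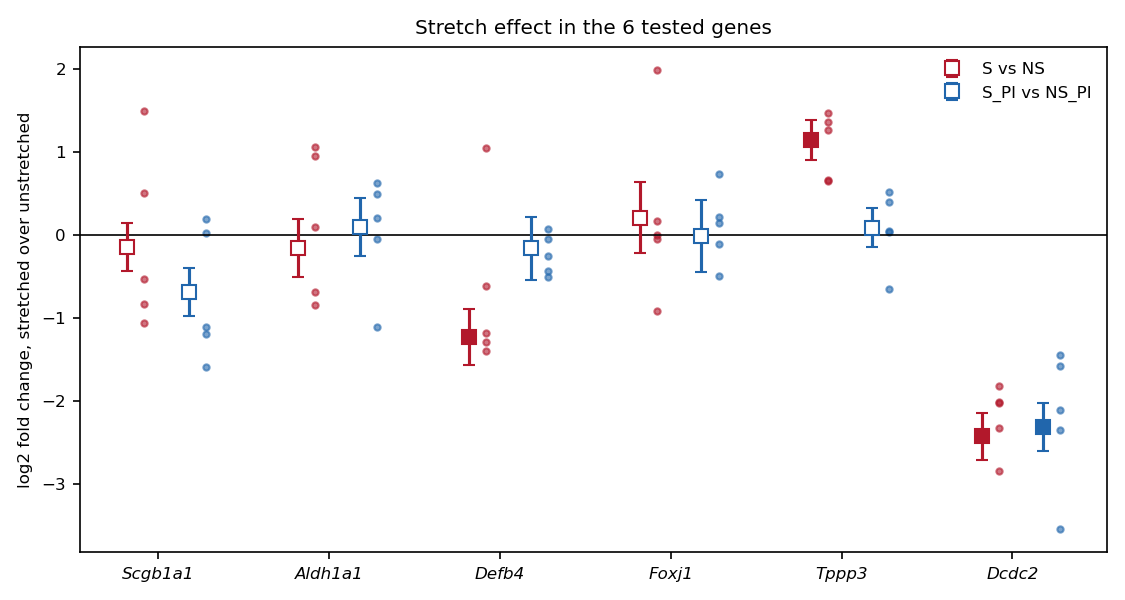
Fitted log2 fold change of stretch (squares, bars are SE) for the 6 tested genes without (red) and with inhibitor (blue); filled squares passed an adjusted p below 0.05, and small points are the paired log2 differences of the 5 animals. Dcdc2 is filled in both (-2.42 and -2.31), Tppp3 (1.14) and Defb4 (-1.23) without inhibitor.

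The promoter of Dcdc2 is shown because the gene had the largest change among the 8, in the same window of RefSeq on GRCr8 and with the same marks as above.
Dcdc2 promoter, chr17:40458741-40459040, minus strand: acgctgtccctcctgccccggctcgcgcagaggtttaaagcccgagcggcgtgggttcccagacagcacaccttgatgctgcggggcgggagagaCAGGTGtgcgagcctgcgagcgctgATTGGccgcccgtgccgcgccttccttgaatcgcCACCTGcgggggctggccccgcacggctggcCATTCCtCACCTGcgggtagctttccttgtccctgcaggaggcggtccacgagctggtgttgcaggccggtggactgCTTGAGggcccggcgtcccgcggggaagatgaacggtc

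The window held 69.0% G and C with 29 CG pairs, against medians of 51.7% and 7 over the promoters of the table, while that of Scgb1a1 held 50.3% and 5. CACCTG was present at -155 on the minus strand and at -96 and -58 on the plus strand, and at least 1 match occurred in 18.8% of all promoters. GGAATG was present at -65 on the minus strand (14.2% of promoters), CCAAT at -130 on the minus strand (37.5%) and CTTGAG at 12 (15.8%). TGANTCA was absent from this window and from those of the 3 secretoglobins and Aldh1a1, and present in 7.33% of all.

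The genes most like Dcdc2 across the 20 libraries, with animal means removed, were Bcas2, a splicing factor (r = 0.98), Dennd2d, of a family of Rab activators (0.98), and RGD1310769 (0.97). Their log2 changes in S vs NS were -0.81 ± 0.15, -1.63 ± 0.22 and -1.61 ± 0.21. The correlation of Dcdc2 with the other members, computed in the same way, ran from -0.61 (Tppp3) to 0.52 (Scgb1a1). In its own family 3 genes were tested, of which Dcdc2 was the 1 that was called. That is 33.3% lower in each stretch comparison, against 12.4% and 15.3% of all genes. With 3 genes tested, this share says little about the family. Dclk1, a doublecortin-like kinase, was at 92.1 CPM with a log2 change of -0.095, and Dclk2 had 0.56, neither called.

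Genes of the primary cilium, with which Dcdc2 is known to be associated, contained falls and no rises among those called. Of 35 tested carriers, Bardet-Biedl and transition zone genes, 8 fell and 0 rose in S vs NS (22.9% lower, against 12.4% of all genes), and 12 fell and 0 rose in S_PI vs NS_PI (34.3%, against 15.3%). The median log2 change was -0.23 and -0.39, against -0.01 and -0.02 over all genes. Bbs10, a chaperonin-like protein of the Bardet-Biedl group, fell by 1.96 ± 0.34 from 10.3 ± 1.87 to 2.82 ± 1.83 CPM (adjusted p = 0.000418), and fell by 3.02 ± 0.36 with inhibitor (4.38e-06). Ift81, which binds tubulin in the transport complex, fell by 1.23 ± 0.25 and 1.04 ± 0.25 (0.00147 and 0.00332). Ift52, a core subunit of that complex, fell by 0.78 ± 0.14 and 0.66 ± 0.14 (0.00066 and 0.00183).

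Dync2li1, a light intermediate chain of the ciliary dynein, fell by 0.96 ± 0.20 and 0.92 ± 0.20 (adjusted p = 0.00178 and 0.00175). Bbs7, a subunit of the BBSome coat, fell by 0.95 ± 0.27 and 0.88 ± 0.28 (0.0152 and 0.0233).

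**Figure D4:**
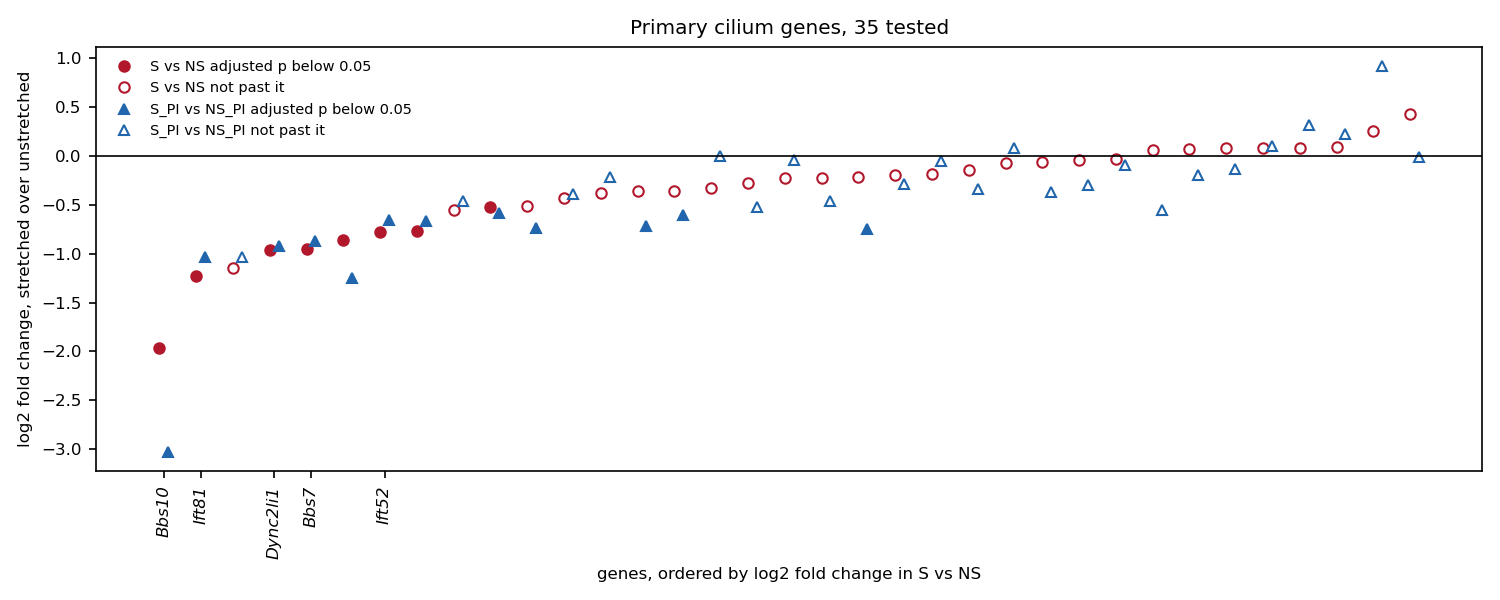
Log2 fold change of stretch for the 35 tested primary cilium genes without (circles) and with inhibitor (triangles), ordered by the first; filled marks passed an adjusted p below 0.05, and the axis names the 5 genes described in the text. The 8 filled circles and 12 filled triangles all lie below 0, with Bbs10 lowest in both (-1.96 and -3.02).

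Markers of other cell types were called to different extents. Over all tested genes, 24.9% were called in S vs NS (12.5% higher and 12.4% lower). In S_PI vs NS_PI it was 30.5% (15.2% higher and 15.3% lower). Type II markers had 8.33% higher in each, which rests on 1 of 12 tested genes. Of 11 tested macrophage and leukocyte markers, 5 rose (45.5%) and 0 fell in S vs NS, and 7 rose (63.6%) and 0 fell in S_PI vs NS_PI. Their summed levels were 1027 to 3204 CPM in NS and 1606 to 4173 in S. Of 12 tested alveolar type I markers, 1 rose and 4 fell in S vs NS (8.33% and 33.3%). In S_PI vs NS_PI 2 rose and 7 fell (16.7% and 58.3%). The type I sums were 2194 to 8455 CPM in NS and 1595 to 7507 in S. Of 12 type II markers, 1 rose and 0 fell in each. Of 8 fibroblast and smooth muscle markers, 1 rose and 0 fell in S vs NS, and 2 rose and 1 fell in S_PI vs NS_PI. The neuroendocrine and the mesothelial markers, 2 tested of each, had 1 rise without inhibitor and 0 calls with it. Airway basal cell markers had 6 of 8 genes that reached 3 counts in some library, at sums of 50.8 to 213 CPM in NS and 54.3 to 154 in S, and Krt5 had 1 count in all. The 1 basal marker tested, Krt17, was not called without inhibitor (-0.46) and fell by 1.02 with it (adjusted p = 0.00188). Of 8 endothelial markers 3 reached 3 counts in some library, and Cdh5 and Cldn5 were at 0. Neuroendocrine markers had sums of 206 to 301 CPM in NS and 270.5 to 1029 in S, mesothelial markers 124 to 250.1 and 142 to 881. Both upper limits in S came from animal 1, and no library of the other 4 animals exceeded 378 CPM for the neuroendocrine and 289.7 CPM for the mesothelial markers. Most of the neuroendocrine sum was Uchl1, at a mean of 328 CPM. Fibroblast and smooth muscle markers had sums of 16644 to 44987 CPM in NS and 24310.4 to 51250.3 in S. That list holds Fn1, Sparc and collagen genes, and a summed level does not give the number of cells of a type. The part of these cell types in the changes of Dcdc2, Tppp3 and Defb4 was not tested.

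The inhibitor called none of the 8 genes. In NS_PI vs NS, S_PI vs S and the interaction, 0 of 6 tested members and 0.0% of all tested genes passed with edgeR. An unadjusted p below 0.05 was found in 455, 340 and 345 of 8320 genes. Where no gene differs, a share of about 0.05 of the genes tested is expected below that limit, so these counts alone show no effect. DESeq2 called 5, 0 and 0 genes, none of them a member. In the authors' deposited table, which names neither its groups nor their direction, Dcdc2 (ENSRNOG00000017511) has a log2 value of 1.96 with adjusted p = 5.63e-09, and Tppp3 (ENSRNOG00000016890) has -0.96 with 0.0238. Defb4 (ENSRNOG00000013939) has 0.76 with 0.137 in the authors' deposited table, and Scgb1a1 (ENSRNOG00000020196) and Aldh1a1 (ENSRNOG00000017619) have 0.04 and 0.01. These signs are opposite to stretched over unstretched for Dcdc2, Tppp3 and Defb4.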

How the data were processed

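Expression of 8 airway genes was read in 20 QuantSeq libraries of rat alveolar epithelial monolayers (4 groups of 5 animals). The submitters' processing notes name STAR, HTSeq, DESeq2 and the build rn6. Their versions and settings, the annotation and the use of strand were not given in the sources used. The authors deposited raw counts for 17337 symbols and a DESeq2 result whose name says that rat was controlled for. Per the file headers, that result holds a mean of normalized counts (a signal), log2 fold changes and their errors, a test statistic (a score) and p-values; 7 of the 8 members were matched in it by symbol.

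HTSeq summary rows were left out of library sizes; records in no gene made up 16.2 to 24.5% and records with several alignments 35.5 to 57.7% of all records. Genes were filtered with filterByExpr (8320 left), TMM-scaled and fitted by group and animal in edgeR (quasi-likelihood test), with 12 residual degrees of freedom and no term for stretch effects that differ between animals. The replicate number gives the animal: libraries with the same number correlated in their deviations from group means (lowest r = 0.32), and 20 of 20 correlated best with their own animal. The kit marks strand, but nothing says how strand was used in counting. Log2 CPM used a prior count of 2. The SE of a fitted log2 change was its absolute value divided by the square root of the test's F statistic. It is approximate, most of all for small changes. Detection floors of 3 counts cover counting error only, since no molecular identifiers are named. The labels name no sequencing batch. The fit was tested on simulated data.

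Alternatives were DESeq2, upper-quartile scaling, library size alone, no filter, only the compared groups, no replicate block, leaving out each animal, and, added after seeing the data, leaving out the shallowest library (S, animal 4). Members and the 21 lists of markers and pathway genes were chosen with earlier results of these data known; from a list, called genes were named, at most the 6 with the smallest adjusted p in S vs NS, and the genes named although not called, with those few chosen from a list's remainder, were picked after their values were seen. Likeness of genes was computed within animals only, since 5 animal means are fewer than the 6 samples set as the minimum for a correlation. Software was R 4.3.3, edgeR 4.0.16, DESeq2 1.42.0, Python 3.11.15, SciPy 1.17.1 and matplotlib 3.10.9. Some genes that these rules would name are not reported here.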

Additional observations from a re-analysis of the deposited data

Results flagged for a closer look

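In all 4 groups, the Defb4 level of animal 1 stood far above those of the other animals by Dixon's criterion for groups of 5, at 78.9 CPM unstretched (NS), 31.7 CPM stretched (S) and, with inhibitor, 30.2 (NS_PI) and 29.2 CPM (S_PI). The Scgb3a1 level of animal 2 in NS, 2.96 CPM from 6 counts, stood apart from the others in the same way. In all, 32 sets of 5 values were examined. Chance marks about 1 in 20 such sets where values are normally distributed. Low counts are not, so the rate for these sets is not known. The 4 Defb4 values come from 1 animal and are not independent of each other.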

How the results depend on the processing

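Of 345 comparisons of a fitted log2 change of a member with its value under an alternative, 310 kept their direction and their side of the threshold. With no replicate block, S vs NS called 818 genes and 1 member, S_PI vs NS_PI 1229 genes, and the calls of Tppp3 and Defb4 in S vs NS ended; that of Dcdc2 held. With only the compared groups S vs NS called 1048 genes. In S_PI vs NS_PI 2 members were called with upper-quartile scaling, 2 with library size only and 2 with no filter, Scgb1a1 being the added one. In NS_PI vs NS 5 genes were called with DESeq2, 4 with no filter and 27 with only the compared groups. Signs that turned belonged to changes that were not called: with library size only to Aldh1a1 (-0.0086) and Tppp3 (-0.014) in S_PI vs NS_PI, and with DESeq2 to Foxj1 there (0.043). The causes were not tested.

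Leaving out an animal or the shallowest library gave 1418 to 1989 genes and 2 to 3 members in S vs NS, 1839 to 2530 genes and 1 to 2 members in S_PI vs NS_PI, and 0 to 3 genes in NS_PI vs NS. In S vs NS log2 changes then ran from -0.50 to 0.13 in Scgb1a1, -0.36 to 0.18 in Aldh1a1 and -0.32 to 0.74 in Foxj1. In S_PI vs NS_PI they ran from -0.095 to 0.32 in Aldh1a1, -0.14 to 0.23 in Foxj1 and -0.054 to 0.23 in Tppp3, in NS_PI vs NS from -0.32 to 0.077 in Aldh1a1, -0.080 to 0.53 in Foxj1 and -0.20 to 0.055 in Dcdc2, in S_PI vs S from -0.083 to 0.38 in Aldh1a1, -0.22 to 0.43 in Foxj1 and -0.071 to 0.27 in Dcdc2, and in the interaction from -0.016 to 0.42 in Aldh1a1, -0.71 to 0.24 in Foxj1 and -0.049 to 0.21 in Dcdc2. Library size alone moved the median log2 change of all genes to -0.12 in S vs NS (722 genes higher, 1425 lower) and in S_PI vs NS_PI to -0.12 (957 higher, 1677 lower), against 1044 and 1031, and 1263 and 1271, on the TMM scale. Upper-quartile scaling gave 1030 higher and 1612 lower in S_PI vs NS_PI.

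Scgb3a1 and Scgb3a2, with 27 and 36 counts in 20 libraries, allow no statement on stretch, and Defb4 rests on animal 1. Foxj1, Aldh1a1 and Tppp3 stood at 0 to 71 counts per library, with standard errors of 0.24 to 0.44 on the log2 scale in the stretch comparisons.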
